A study of Mus musculus with 20 samples.

Results

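Serotonin (5-HT) neurons sorted from Pet-1-/- mouse embryos at E15.5 were compared with sorted wild-type neurons of the same stage, in RNA amplified with the Clontech SMARTer kit. Of 22552 genes in the deposited table, 10939 carried a completed test and reached at least 1 FPKM (a read level scaled to transcript length and to library size) in knockout or wild type, and these are the genes described. The neurons came from C57BL/6 animals and were isolated by flow cytometry for EYFP. The labels name the driver of EYFP (ePet) for the chromatin embryos only. Each genotype had 3 Clontech libraries, which the deposited table pools into 1 value for the knockout and 1 for the wild type. A second set of knockout and wild-type E15.5 libraries, 3 each, was amplified with the NuGEN Ovation kit, and an earlier and a later wild-type stage and a chromatin profile complete the 20 samples of the series. The labels do not say that libraries came from separate embryos or that the kits used separate RNA, so the spread behind any p-value may be technical.

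Pet-1, encoded by Fev, is an ETS-family transcription factor that in the brain is largely restricted to serotonin neurons. ETS factors bind DNA around a GGAA core. Mice without Pet-1 still form many of the neurons in the serotonergic domain of the hindbrain, but most of these lack the enzymes and transporters that make a neuron serotonergic. Serotonin is made from tryptophan by tryptophan hydroxylase (Tph2), which needs tetrahydrobiopterin as a cofactor, and by aromatic amino acid decarboxylase (Ddc). It is loaded into vesicles by Slc18a2 and taken back up by Slc6a4.

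The label of the cells was checked against general neuronal genes. Stmn2, a growth-associated neuronal protein, had 1854 FPKM in knockout and 1673 FPKM in wild-type neurons, and Gata3, a transcription factor of the serotonin lineage, had 137 FPKM in knockout and 164 FPKM in wild type. Of 12 measured general neuron markers 1, Elavl3, passed the test (8.33%, against 2.81% of all genes), and the list's median log2 ratio was 0.12. Since knockout cells were pooled in 1 value, spread could be seen in the wild type alone, where a separate deposited matrix gives the 3 wild-type E15.5 libraries (called a, b and c here). That matrix names no kit and no replicate and was normalised separately. The mean of its libraries over the deposited Clontech wild-type value had a median of 1.00 across the genes, with 90% of genes between 0.860 and 1.20. Over the NuGEN wild type the same range ran between 0.415 and 2.58. No read numbers were given, so the depth behind these values is unknown.

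Between knockout and wild type, 307 genes were called, meaning a q-value below 0.05 in the authors' deposited table and a ratio of at least 1.5-fold. This was 2.81% of the genes. Of these, 105 were higher in the knockout (0.960%) and 202 lower (1.85%), so that 65.8% of the calls were decreases. The median log2 ratio (knockout over wild type) over all 10939 genes was -0.02, with 90% of genes between -1.0 and 0.84. Decreases were larger than increases: 55 of the lower genes and 12 of the higher genes differed by at least 4-fold, and the median log2 ratios were -1.52 and 1.07. Another 1938 genes differed by at least 1.5-fold without being called. The smallest p in the authors' deposited table, 5.00e-05 with a q of 0.00391, was shared by 145 of the called genes, so their order by p has no meaning.

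**Figure D1:**
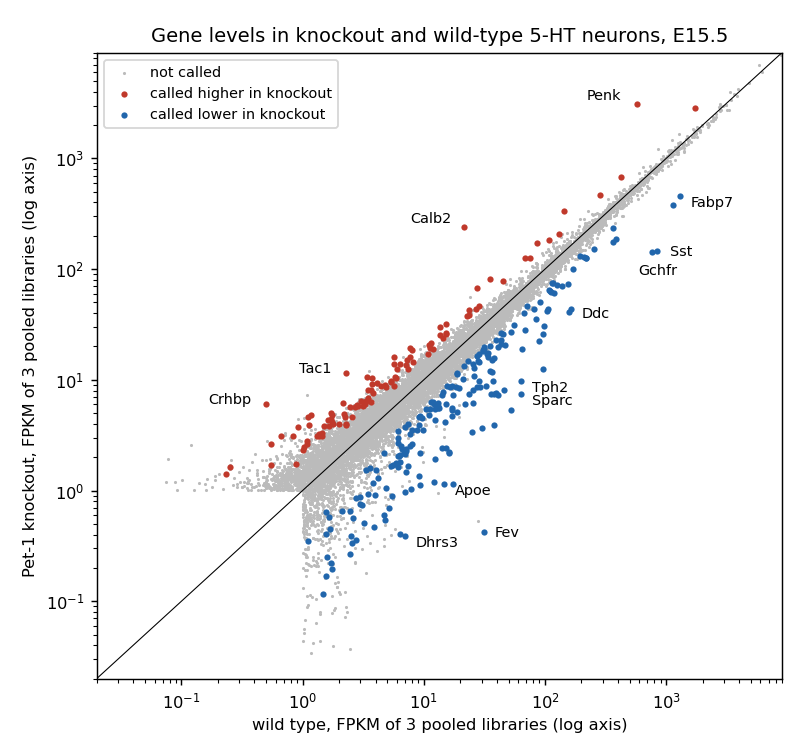
Level of each gene in Pet-1 knockout (vertical, FPKM, log axis) and wild type (horizontal, FPKM, log axis) at E15.5, 1 point per gene with a value above 0 in both, with the diagonal marking equal levels. Genes called higher in the knockout are red and those called lower are blue. Fev lies farthest below the diagonal among the called genes, at 0.422 FPKM in the knockout against 31.1 FPKM in wild type.

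Fev itself had 0.422 FPKM in knockout neurons, against 31.1 FPKM in wild type (55.9, 34.6 and 15 FPKM in libraries a, b and c). The knockout value was below every wild-type library, and the log2 ratio was -6.20, a 73.6-fold decrease, with a q of 0.00391 in the authors' deposited table. With the NuGEN kit Fev had 0.308 FPKM in knockout and 34.9 FPKM in wild type. The deposited value covers the whole gene, and which exons still gave reads was not analysed here.

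The main genes for making and moving serotonin, Tph2, Ddc, Slc6a4 and Slc18a2, fell. Of 14 measured members of the serotonin synthesis and transport list, 7 were lower and 0 higher, 50% against 2.81% of all genes, and the median log2 ratio was -1.30 against -0.02. The knockout value lay below all 3 wild-type libraries for 10 of the 14. When any 1 wild-type library was left out, 7 stayed at least 1.5-fold lower. The deposited q was kept there, so only the ratio could change. Tph2 had 9.75 FPKM in the knockout, against 63.5 FPKM in wild type (64.9, 51.0 and 76.3 in libraries a to c), a 6.52-fold decrease. Ddc had 44.0 FPKM in the knockout, against 164 FPKM in wild type (170, 173 and 148), a 3.73-fold decrease. Both enzymes kept more of their wild-type level than Fev did. Slc6a4, the serotonin reuptake transporter, had 6.21 FPKM in the knockout and 25.6 FPKM in wild type (27.8, 26.3 and 23.4), a 4.12-fold decrease. Slc18a2, the vesicular monoamine transporter, had 8.17 FPKM in the knockout and 25.3 FPKM in wild type (20.1, 17 and 26.8), a 3.10-fold decrease. For each of these 4 genes the knockout value was below every wild-type library, with a q of 0.00391 in the authors' deposited table.

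The cofactor branch was affected unevenly. Gchfr, which regulates GTP cyclohydrolase, the first enzyme of tetrahydrobiopterin synthesis, was the most abundant member and had 143 FPKM in the knockout, against 769 FPKM in wild type (1106, 735 and 473), a 5.36-fold decrease. Qdpr, which regenerates the cofactor after each reaction, had 41.8 FPKM in the knockout and 104 FPKM in wild type (116, 102 and 84.3), a 2.47-fold decrease. Gch1, GTP cyclohydrolase itself, had 2.94 FPKM in the knockout and 4.41 FPKM in wild type (4.03, 4.15 and 4.08), and it was not called at a q of 0.400 in the authors' deposited table. Neither were Pts at 91.7 FPKM in knockout and 128 FPKM in wild type, Spr at 7.06 FPKM in knockout and 7.87 FPKM in wild type and Pcbd1 at 55.2 FPKM in knockout and 51.5 FPKM in wild type. Among the degrading enzymes Maob was 2.43-fold lower, at 15 FPKM in the knockout and 36.6 FPKM in wild type (34.8, 30.7 and 37.2), while Maoa had 27.3 FPKM in knockout and 37.8 FPKM in wild type and a q of 0.146 in the authors' deposited table. Slc22a3, a low-affinity monoamine transporter, had 0.0421 FPKM in the knockout and 1.21 FPKM in wild type (1.18, 0.984 and 1.4). Its ratio was 28.7-fold, and it was not called, with a q of 0.207 in the authors' deposited table. Slc29a4, another such transporter, had 13.7 FPKM in knockout and 8.83 FPKM in wild type and was not called.

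**Figure D2:**
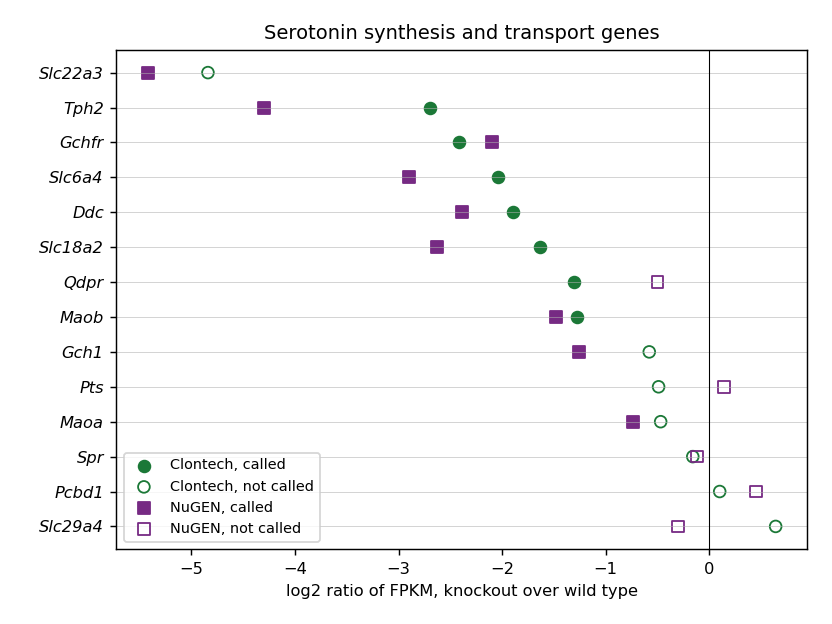
Log2 ratio of FPKM, knockout over wild type (horizontal), for the 14 measured serotonin synthesis and transport genes, in Clontech (green circles) and NuGEN (purple squares) libraries. Filled symbols are called, open ones are not, and 7 genes are filled for Clontech, all left of 0.

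In the NuGEN libraries, 9 of 15 members of this list were lower and 0 higher, with a median log2 ratio of -1.48, in a table where 12.7% of all genes were called. For Tph2 the log2 ratio was -2.70 with Clontech and -4.30 with NuGEN. For Slc6a4 it was -2.04 with Clontech and -2.90 with NuGEN, and for Slc18a2 -1.63 and -2.63. NuGEN also called Slc22a3 (-5.42), Gch1 (-1.26) and Maoa (-0.74), and it did not call Qdpr (-0.50). The difference between kits itself was not tested, because the deposited p-values do not follow the deposited test statistic from which its error was to be taken.

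**Figure D3:**
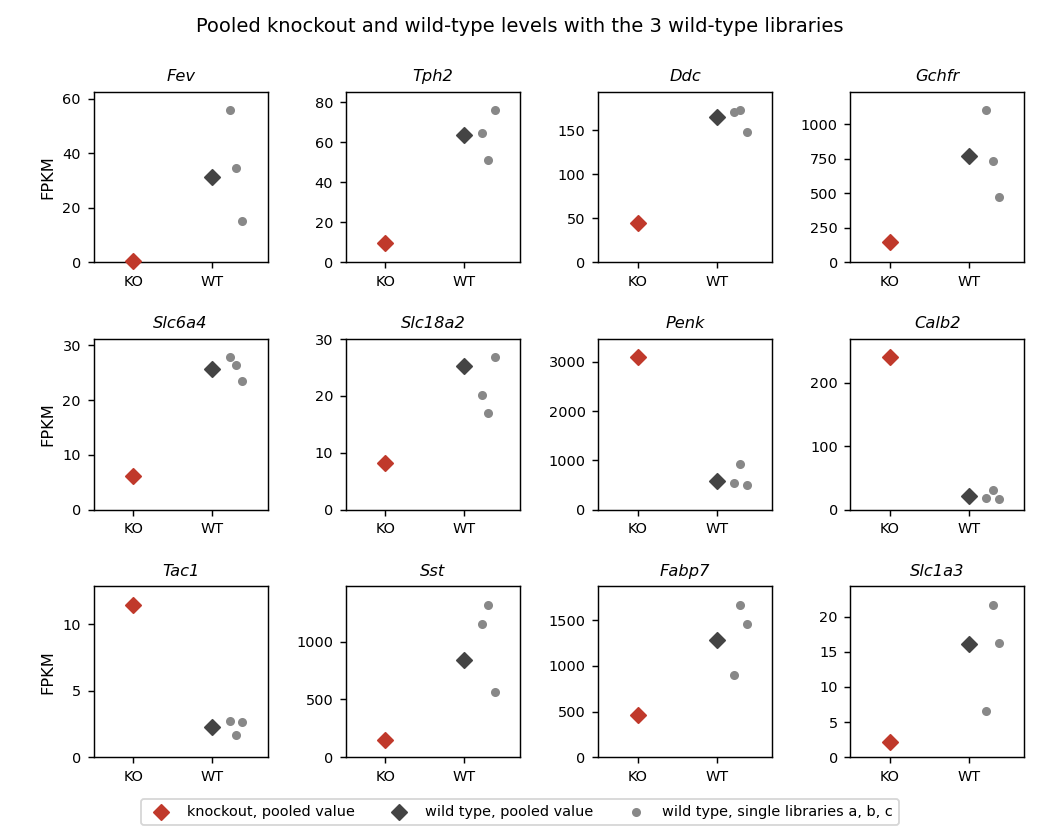
Levels in FPKM (vertical, from 0) of 12 genes, with the pooled knockout value (red diamond, left), the pooled wild-type value (dark diamond) and the wild-type libraries a, b and c (grey points, left to right). In every panel the knockout value lies outside the range of the 3 wild-type libraries, below it for Fev, Tph2, Ddc, Gchfr, Slc6a4, Slc18a2, Sst, Fabp7 and Slc1a3, and above it for Penk, Calb2 and Tac1.

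Besides Fev, the transcription factors of serotonin neurons that were called were En1 and Nr2f2. Of 14 measured, 3 were lower, Fev included, and 0 higher (21.4%, against 2.81% of all genes), and the median log2 ratio was -0.07, against -0.02 over all genes. En1, a homeodomain factor of the anterior hindbrain, had 14.7 FPKM in the knockout and 27.9 FPKM in wild type (42.2, 24.6 and 21.6), a 1.90-fold decrease. Nr2f2, a nuclear receptor, was called at 40.4 FPKM in the knockout and 66.7 FPKM in wild type. Library b had 35.0 FPKM, so the knockout lay within the range of the libraries, and the log2 ratio of -0.72 was -0.51 against the mean of the 3 libraries, short of 1.5-fold. The early determinants Gata2 and Gata3 were not called. Gata2 had 30.6 FPKM in knockout and 33.5 FPKM in wild type, and Gata3 137 FPKM in knockout and 164 FPKM in wild type. Lmx1b, a homeodomain factor that serotonin neurons need, had 8.19 FPKM in the knockout and 4.89 FPKM in wild type (5.69, 7.31 and 5.19), with a q of 0.378 in the authors' deposited table. Nkx2-2, a factor of ventral progenitors, had 11.46 FPKM in knockout and 6.58 FPKM in wild type and Insm1 9.07 FPKM in knockout and 8.80 FPKM in wild type. Foxa2, En2, Hmx2, Pou3f2, Pax5 and Egr1 were measured and not called either. NuGEN called Nr2f2 lower (log2 ratio -0.87) and Nkx2-2 higher (1.11), and it did not call En1 (-0.43). Of 14 measured there, 1 was higher and 2 were lower, Fev included, in a table where 12.7% of all genes were called.

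Serotonin receptors were scarce, with 4 of 14 reaching 1 FPKM and 0 called, though 2 had an unadjusted p below 0.05 in the authors' deposited table. Htr1a, the autoreceptor of the cell body, had 0.924 FPKM in the knockout and 1.07 FPKM in wild type, where the libraries held 0.191, 1.05 and 1.42 FPKM. NuGEN libraries had 1.02 FPKM in knockout and 5.70 FPKM in wild type for the same gene, and called it lower. Htr7 had 2.82 FPKM in the knockout and 0.976 FPKM in wild type (1.05, 0.697 and 1.23), above all 3 libraries, with a q of 0.0748 in the authors' deposited table. Htr5b had 1.18 FPKM in knockout and 0.302 FPKM in wild type and Htr3a 11.9 FPKM in knockout and 9.67 FPKM in wild type, and neither was called. NuGEN called Htr7 and Htr3a higher, each with a log2 ratio of 1.11, so that 2 of 4 receptors were higher and 1 lower there, where 12.7% of all genes were called.

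Where Pet-1 can sit near these genes was read from 4934 peaks of a Myc-tagged Pet-1 in embryonic hindbrain, deposited as 1 list on mm10. The labels conflict on the genotype of that sample (wild type or Pet-1-/- with the tagged transgene). Its embryos were aged from E12.5, and the labels conflict on the last age (E14.5 or E15.5). The peaks thus come at least partly from earlier embryos than the E15.5 RNA. RefSeq's GRCm38.p6 table gave a start window (250 bases before to 50 after the gene start) for 8730 of the 10939 genes. A peak centre lay within 5 kb of a start for 25.3% of the higher genes with a window (19 of 75) and 22.6% of the lower ones (36 of 159), against 36.8% of all genes. Among genes higher with both kits it was 4.17% (1 of 24, Rpp25), and among genes lower with both kits 21.3% (10 of 47). These shares are descriptions of the lists, without a test. Fev and Gchfr had a peak that overlapped the start window, with scores of 59.9 and 69.9 in a list whose median score was 88.3. The scores are the authors'. Rpp25, a subunit of ribonuclease P, had one with a score of 101. The log2 ratios of Rpp25 were 0.89 with Clontech and 1.42 with NuGEN. Its Clontech q of 0.0497 in the authors' deposited table was only just below 0.05. The nearest peak centre was 200129 bases from the start of Tph2, 52895 from Slc6a4, 67730 from Ddc and 84625 from Slc18a2.

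The 5 start windows below are shown to set genes with a peak overlapping the window (Fev, Gchfr, Rpp25) beside lower genes without one (Tph2, Slc6a4). Each is RefSeq GRCm38.p6, written 5′ to 3′ on the gene's strand, with the ETS core GGAA or its complement TTCC in capitals. Fev lies on the minus strand at chr1:74885359-74885658, and the peak at chr1:74885425-74887312 covers its upstream part but not the gene start at 74885408. Gchfr is on the plus strand at chr2:119167538-119167837, inside a peak at chr2:119167188-119167907. Rpp25 is on the plus strand at chr9:57503852-57504151, Tph2 on the minus strand at chr10:115184973-115185272 and Slc6a4 on the plus strand at chr11:76998347-76998646.
Fev: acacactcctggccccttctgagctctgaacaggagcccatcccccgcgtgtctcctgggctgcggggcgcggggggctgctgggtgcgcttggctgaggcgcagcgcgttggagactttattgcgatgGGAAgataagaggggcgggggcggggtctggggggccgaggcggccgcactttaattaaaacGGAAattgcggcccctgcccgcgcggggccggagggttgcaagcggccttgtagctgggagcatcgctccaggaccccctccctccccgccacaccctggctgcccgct
Gchfr: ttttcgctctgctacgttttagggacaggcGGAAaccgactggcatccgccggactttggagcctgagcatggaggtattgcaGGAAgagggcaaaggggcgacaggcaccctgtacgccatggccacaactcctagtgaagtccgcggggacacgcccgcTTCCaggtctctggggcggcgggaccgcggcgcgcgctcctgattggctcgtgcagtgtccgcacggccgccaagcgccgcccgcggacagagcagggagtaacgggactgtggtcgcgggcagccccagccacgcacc
Rpp25: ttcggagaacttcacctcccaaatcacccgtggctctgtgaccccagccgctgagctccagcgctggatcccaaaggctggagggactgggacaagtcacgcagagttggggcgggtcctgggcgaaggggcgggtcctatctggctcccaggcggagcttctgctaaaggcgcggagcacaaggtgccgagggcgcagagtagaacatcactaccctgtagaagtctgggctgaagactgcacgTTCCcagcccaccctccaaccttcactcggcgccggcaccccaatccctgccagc
Tph2: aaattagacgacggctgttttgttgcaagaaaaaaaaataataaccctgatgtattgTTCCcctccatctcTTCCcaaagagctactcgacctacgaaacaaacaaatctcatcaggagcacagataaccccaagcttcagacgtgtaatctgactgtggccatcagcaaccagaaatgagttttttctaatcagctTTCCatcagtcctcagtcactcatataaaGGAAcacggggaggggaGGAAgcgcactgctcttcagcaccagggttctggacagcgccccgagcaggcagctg
Slc6a4: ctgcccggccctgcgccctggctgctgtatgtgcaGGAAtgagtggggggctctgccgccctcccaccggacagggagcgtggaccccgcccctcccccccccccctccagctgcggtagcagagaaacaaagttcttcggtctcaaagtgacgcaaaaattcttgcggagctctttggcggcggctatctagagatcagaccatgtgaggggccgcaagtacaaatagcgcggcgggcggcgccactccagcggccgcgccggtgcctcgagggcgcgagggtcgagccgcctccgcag

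The core occurred 2 times in the Fev window, 3 times in Gchfr, 1 time in Rpp25, 5 times in Tph2 and 1 time in Slc6a4. On either strand it is present in 96.0% of all 32851 start windows in the table, so its presence says little. The longer CCGGAA (complement TTCCGG), which contains the core, is absent from these 5 windows. It is in 14.9% of all windows, and in 29.9% of the windows of the 10939 genes' first listed starts, 20.0% of those of higher genes and 16.4% of those of lower genes. Median GC content of the windows was 66.3% for higher genes and 58.3% for lower genes, against 61.3% for all.

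Among called genes of at least 5 FPKM, the 4 highest ratios belonged to Crhbp, Calb2, Penk and Tac1. Below that level BC057079 and Ust were called with log2 ratios of 2.60 and 2.71, both named after their values were seen. Calb2, calretinin, had 240 FPKM in the knockout and 21.6 FPKM in wild type (18.6, 31.7 and 16.8), an 11.1-fold increase. Penk, the precursor of enkephalins, had 3095 FPKM in the knockout and 573 FPKM in wild type (550, 925 and 502), a 5.40-fold increase. Tac1, the precursor of substance P, had 11.45 FPKM in the knockout and 2.29 FPKM in wild type (2.73, 1.64 and 2.63), a 5.00-fold increase. For Calb2, Penk and Tac1 the knockout value exceeded every wild-type library. Crhbp, which binds corticotropin-releasing hormone, had 6.05 FPKM in the knockout and 0.501 FPKM in wild type (0.736, 0 and 0.797), with a q of 0.0273 in the authors' deposited table. Calb2, Penk, Tac1 and Crhbp were also called higher with NuGEN, at log2 ratios of 3.66, 3.20, 2.50 and 2.43.

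Other peptide genes fell, so the list as a whole split. Of 21 measured neuropeptide and granule genes 3 were higher and 5 lower, 38.1% against 2.81% of all genes, with a median log2 ratio of -0.20. With NuGEN 7 of 22 were higher and 5 lower, where 12.7% of all genes were called, and the median was 0.43. Sst, somatostatin, had 146 FPKM in the knockout and 844 FPKM in wild type (1152, 1319 and 560), a 5.78-fold decrease. NuGEN libraries had 219 FPKM in knockout and 262 FPKM in wild type, which was not called. Pdyn, the precursor of dynorphins, had 5.12 FPKM in the knockout and 18.7 FPKM in wild type (14.4, 29.0 and 20.9). Pcsk1, a convertase that cuts peptide precursors, had 2.17 FPKM in the knockout and 9.34 FPKM in wild type (9.37, 8.72 and 9.60). Chgb, a protein of dense-core granules, had 186 FPKM in the knockout and 383 FPKM in wild type (368, 553 and 493). Pdyn, Pcsk1 and Chgb were also lower with NuGEN. Nts, neurotensin, had 10.7 FPKM in the knockout and 26.0 FPKM in wild type (22.8, 18.4 and 27.2), and its NuGEN log2 ratio was 0.45 without a call. Scg2, a granin, had 301 FPKM in knockout and 443 FPKM in wild type, just short of 1.5-fold, with a q of 0.0237 in the authors' deposited table. Scg3, Scg5, Cpe, Chga and Pcsk2, further granule proteins and processing enzymes, were not called, with log2 ratios between -0.44 and 0.15.

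Receptors for modulatory inputs also moved in both directions, with 2 higher and 2 lower of 14 measured (28.6%, against 2.81% of all genes). Lpar1, a lysophosphatidic acid receptor, had 0.699 FPKM in the knockout and 5.18 FPKM in wild type (5.07, 2.91 and 6.04), a 7.41-fold decrease. Tacr1, the substance P receptor, had 0.451 FPKM in the knockout and 1.69 FPKM in wild type (1.60, 1.61 and 1.66), a 3.75-fold decrease, while its ligand precursor Tac1 rose. Mc4r, a melanocortin receptor, had 3.74 FPKM in the knockout and 0.912 FPKM in wild type (0, 1.23 and 1.08). These 3 receptors were called in the same direction with NuGEN. Cnr1, the cannabinoid receptor, was called higher at 23.7 FPKM in knockout and 14.4 FPKM in wild type, with a NuGEN log2 ratio of -0.11. Of 17 glutamate receptor genes 1 was called (5.88%), Gria3, an AMPA receptor subunit, at 1.17 FPKM in the knockout and 3.82 FPKM in wild type (2.45, 3.67 and 4.42). Slc17a8, a vesicular glutamate transporter that many serotonin neurons carry, had 63.9 FPKM in knockout and 110 FPKM in wild type. It fell 1.72-fold, and without library c the log2 ratio of -0.78 became -0.42. NuGEN called neither Gria3 (log2 ratio -0.74) nor Slc17a8 (-0.41). None of 15 GABA and glycine receptor genes, 17 sodium and calcium channel genes, 26 potassium and HCN channel genes, 11 trophic factor receptor genes or 3 nicotinic receptor genes was called, with median log2 ratios of 0.04, 0.32, 0.30, -0.16 and 0.44. In the authors' deposited table, made in Cuffdiff form, 0, 4, 6, 2 and 1 of them had an unadjusted p below 0.05. With NuGEN these lists had 2, 3, 3, 0 and 0 higher calls and 1, 1, 0, 3 and 0 lower calls, against 12.7% of all its genes called.

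Among 28 synaptic release genes 2 were higher and 1 lower (10.7%, against 2.81% of all genes). Syt1, the fast calcium sensor of vesicle fusion, had 21.0 FPKM in the knockout and 43.7 FPKM in wild type (38.4, 31.6 and 53.5), and was lower with NuGEN too. Syt4, a related protein without that fast role, had 170 FPKM in the knockout and 85.4 FPKM in wild type (72.1, 51.3 and 107). Bsn, a scaffold of the active zone, had 1.74 FPKM in knockout and 0.879 FPKM in wild type. NuGEN called neither. Among 39 axon guidance genes 1 was higher and 3 lower (10.3%). Robo2, a receptor for Slit proteins, had 3.10 FPKM in the knockout and 1.31 FPKM in wild type (0.510, 1.42 and 1.61), and Slit2, one of its ligands, had 1.52 FPKM in the knockout and 3.35 FPKM in wild type (2.74, 3.32 and 3.42). Efna5, an ephrin, had 12.9 FPKM in knockout and 26.1 FPKM in wild type. Robo2, Slit2 and Efna5 were called in the same direction with NuGEN. Ntn1, netrin-1, had 1.67 FPKM in knockout and 7.41 FPKM in wild type and a NuGEN log2 ratio of -0.41 without a call. Cntnap2, a cell adhesion protein of axons, had 9.34 FPKM in knockout and 4.13 FPKM in wild type and was the 1 called gene of 33 in the adhesion list (3.03%).

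Beyond the lists, the 12 lowest ratios among called genes of at least 5 FPKM belonged to Fev, Dhrs3, Prelp, 1500015O10Rik, Apoe, Enkur, Vtn, Anxa1, Sparc, 1700027A23Rik, Aldoc and Cthrc1. Cthrc1, a secreted protein, had 12.6 FPKM in the knockout and 96.3 FPKM in wild type (98.5, 99.4 and 89.8), a 7.65-fold decrease, and its NuGEN log2 ratio was -3.11. The 3 wild-type libraries were close together and far above the knockout. Dhrs3, a retinal reductase, had 0.387 FPKM in the knockout and 6.96 FPKM in wild type (7.68, 10.1 and 5.75), and was lower with NuGEN (-2.20). It was the 1 called gene of 9 in the retinoid list (11.1%, against 2.81% of all genes). Sparc, a matricellular protein, had 7.41 FPKM in the knockout and 63.8 FPKM in wild type (50.7, 75.5 and 55.6). Vtn, vitronectin, had 3.88 FPKM in knockout and 38.3 FPKM in wild type and Prelp, a matrix proteoglycan, 0.407 FPKM in knockout and 6.39 FPKM in wild type. NuGEN wild-type libraries held little of these: 4.49 FPKM of Sparc, 3.94 of Vtn and 0.712 of Prelp, and none of the 3 was called there. FPKM of the kits come from tables normalised separately.

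The 12 highest were Crhbp, Calb2, Penk, Tac1, Dbc1, Cadm2, Dact1, Rbms1, Eef1a2, Neurod6, Nell1 and Lmo1, and NuGEN called all but Eef1a2 higher. Lmo1, a LIM-only transcriptional cofactor, had 67.9 FPKM in the knockout and 27.4 FPKM in wild type (32.6, 31.2 and 26.4). Neurod6, a bHLH factor of differentiating neurons, had 19.3 FPKM in the knockout and 7.76 FPKM in wild type (9.52, 4.58 and 7.34). Dact1, a modulator of Wnt signalling, had 6.13 FPKM in knockout and 2.16 FPKM in wild type, Cadm2, an adhesion molecule, 5.01 FPKM in knockout and 1.73 FPKM in wild type, and Dbc1 10.5 FPKM in knockout and 3.41 FPKM in wild type. Of the called genes most abundant in wild type, Cryba2, a crystallin, had 383 FPKM in the knockout and 1144 FPKM in wild type (1605, 1504 and 944). Enc1, an actin-binding protein, had 336 FPKM in the knockout and 145 FPKM in wild type (135, 130 and 154), and Rit2, a small GTPase, 206 FPKM in knockout and 130 FPKM in wild type. All 3 were called in the same direction with NuGEN. Actb had 2843 FPKM in the knockout and 1743 FPKM in wild type (1781, 1201 and 1632), and is listed at 0 in both groups of the NuGEN table, where its estimate failed. Eif5a had 674 FPKM in knockout and 420 FPKM in wild type without a NuGEN call. Itm2b, at 237 FPKM in knockout and 363 FPKM in wild type, and Ccl27a, at 466 FPKM in knockout and 282 FPKM in wild type, fell short of 1.5-fold against the mean of the 3 libraries (log2 ratios -0.54 and 0.57). Pnmt, which makes adrenaline from noradrenaline, had 1.28 FPKM in the knockout and is listed at 0 in wild type and in each of its libraries. It has no ratio, and the NuGEN table did not call it.

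Astrocyte and progenitor markers were also among the decreases. Of 10 measured astrocyte markers 6 were lower and 0 higher (60.0%), with a median log2 ratio of -2.10, and of 13 progenitor markers 4 were lower and 0 higher (30.8%), with a median of -1.30. Of all genes 2.81% were called, 1.85% as lower. In bulk RNA, fewer cells of a type and less RNA per cell cannot be told apart. Slc1a3, a glial glutamate transporter, had 2.18 FPKM in the knockout and 16.1 FPKM in wild type (6.63, 21.7 and 16.3). Apoe, a lipid carrier, had 1.15 FPKM in the knockout and 14.7 FPKM in wild type (19.2, 44.3 and 7.80). Aldh1l1, a folate enzyme of astrocytes, had 1.35 FPKM in the knockout and 9.13 FPKM in wild type (7.72, 11.8 and 10.3). Each knockout value was below all 3 wild-type libraries, which themselves differed several-fold for Apoe and Slc1a3. Aldoc, Sparcl1 and Fgfbp3 were lower as well, Glul at 17.3 FPKM in knockout and 20.4 FPKM in wild type and Slc1a2 at 3.26 FPKM in knockout and 2.51 FPKM in wild type were not called, and Gfap was at 0 in the knockout and 0.00290 FPKM in wild type. Fabp7, a lipid-binding protein of radial glia, had 458 FPKM in the knockout and 1289 FPKM in wild type (902, 1672 and 1466). Vim, an intermediate filament protein, had 18.9 FPKM in knockout and 64.2 FPKM in wild type, Prom1 1.93 FPKM in knockout and 12.3 FPKM in wild type, and Sox9 1.31 FPKM in knockout and 4.16 FPKM in wild type. Sox2, at 2.47 FPKM in knockout and 6.08 FPKM in wild type, and Hes1, at 0.392 FPKM in knockout and 3.41 FPKM in wild type, were not called.

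Summed over the astrocyte list, FPKM came to 67.8 in the knockout and 186 in wild type, with 130, 258 and 201 in libraries a, b and c. The progenitor list came to 499 in the knockout and 1402 in wild type, with 996, 1840 and 1591. In the NuGEN table the astrocyte sum was 65.0 in knockout and 72.5 in wild type, and the progenitor sum 327 in knockout and 199 in wild type. There 1 of 9 astrocyte markers was lower and 0 higher, and of 9 progenitor markers 1 was lower (Vim) and 1 higher (Fabp7), in a table where 12.7% of all genes were called. When any 1 wild-type library was left out, 6 astrocyte and 4 progenitor genes stayed at least 1.5-fold lower. The deposited q was kept there, so only the ratio could change. The part of these cells in the other decreases was not tested. Of 7 measured microglia and blood genes none was called and 2 had an unadjusted p below 0.05 in the authors' deposited table, with a median log2 ratio of -2.13 and sums of 13.3 FPKM in the knockout and 45.0 in wild type (58.6, 69.8 and 20.0). C1qa and Csf1r, both listed at 0 in the knockout, had pooled wild-type values of 0.874 FPKM (1.74, 1.29 and 0.0885) and 0.448 FPKM (0.470, 0.788 and 0.238). They were left out by the minimum of 1 FPKM alone, since both had a q of 0.00391 in the authors' deposited table. Among the globin genes of the list, Hba-a1 and Hba-a2 are near-identical copies, between which reads may have been split. Beta-s, a globin gene outside the list, was called, with a q of 0.00391 in the authors' deposited table. NuGEN did not call it, at a q of 0.192 in the authors' deposited NuGEN table. It was named after its values were seen. Immediate early genes had 0 higher and 2 lower of 6 (33.3%, against 2.81% of all genes): Fos had 5.34 FPKM in the knockout and 17 FPKM in wild type (16.2, 18.3 and 16.2) and Btg2 6.10 FPKM in knockout and 15.2 FPKM in wild type (11.7, 12.8 and 14.4). Their NuGEN log2 ratios were 0.21 and -0.21. Of 25 cell cycle genes 20 had a lower value in the knockout, with a median log2 ratio of -0.71. The knockout lay below all 3 libraries for 13 of them, where 14.9% of all genes did, and 12 had an unadjusted p below 0.05 in the authors' deposited table. Called was 1 (4.00%), Ccnd2, at 2.17 FPKM in knockout and 4.68 FPKM in wild type. With NuGEN the median log2 ratio of 19 measured cell cycle genes was 0.26. There 1 was higher and 3 were lower, where 12.7% of all genes were called.

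**Figure D4:**
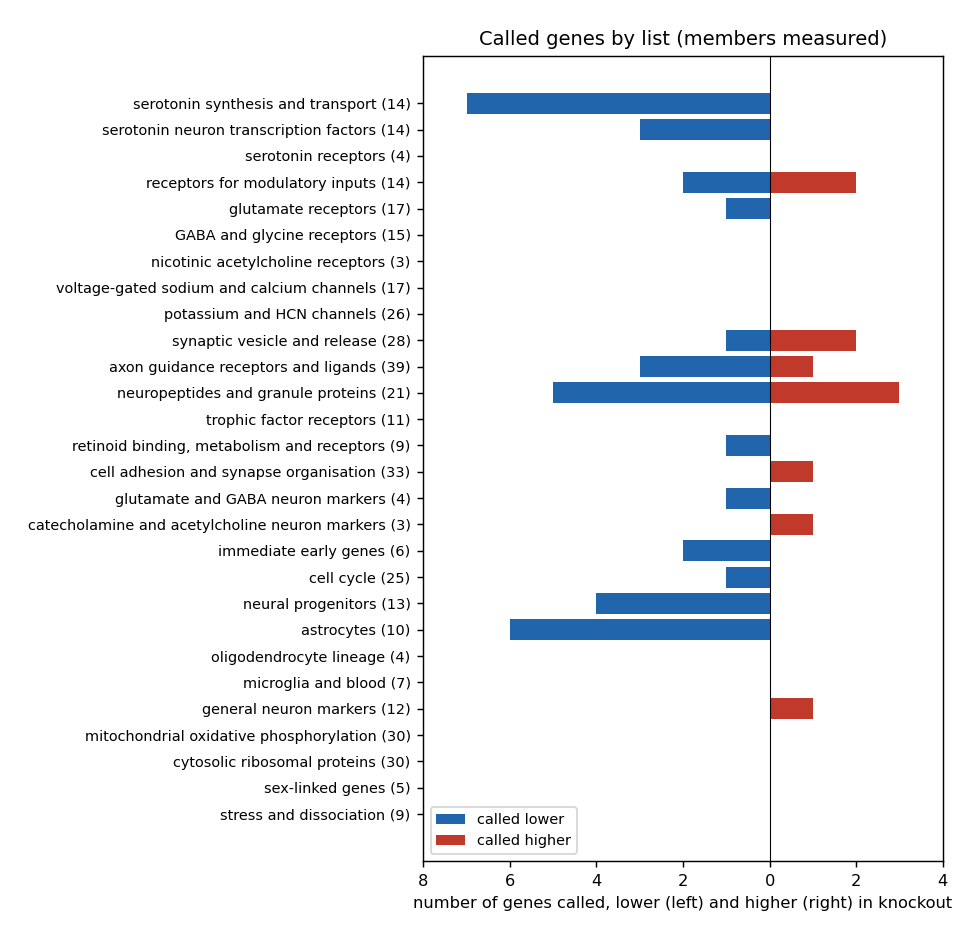
Number of genes called lower (blue, left) and higher (red, right) in the knockout for each list with at least 3 measured genes, whose number stands in brackets. The longest bars are serotonin synthesis and transport (7 lower), astrocytes (6 lower) and neuropeptides and granule proteins (5 lower, 3 higher).

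None of 30 ribosomal protein genes or 30 oxidative phosphorylation genes was called, with median log2 ratios of -0.06 and -0.04, where the NuGEN table gave 0.71 and 0.59 and called 16 and 13 of them higher and 0 and 1 lower, against 12.7% of all its genes called. An unadjusted p below 0.05 in the authors' deposited table was held by 0 of either list, by 1 of the stress genes and by 1 of the sex-linked genes. None of 9 stress and dissociation genes was called (median -0.05). None of 5 sex-linked genes was called. Xist had 4.24 FPKM in the knockout and 3.84 FPKM in wild type, and the Y-linked Ddx3y 2.99 FPKM in knockout and 3.71 FPKM in wild type, so both pools held Xist and Y-linked RNA. In the NuGEN table, where 12.7% of all genes were called, 1 of the 5 was higher and 3 were lower.

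Set beside the NuGEN table, 98 of the 307 called genes were called in the same direction, 38 higher and 60 lower. That is 31.9% of the Clontech calls and 6.99% of the 1403 NuGEN calls. NuGEN called 12.7% of all its genes, 901 higher and 502 lower. Of the 104 higher genes measured with both kits, 90 were higher with NuGEN, and of the 181 lower genes 127 were lower. The NuGEN median log2 ratio over all its genes was 0.09, and the share of equal signs over all genes was not counted. Across the 284 called genes with a finite ratio in both, Pearson's r of the log2 ratios was 0.60. It was 0.30 across all 10496 genes, which are not independent replicates. The 60 genes lower with both kits had median log2 ratios of -1.38 with Clontech and -1.21 with NuGEN. Besides the serotonin genes they included Dnajc12, a co-chaperone, at 41.0 FPKM in the knockout and 157 FPKM in wild type, and Cited1, a transcriptional coactivator, at 25.7 FPKM in knockout and 95.7 FPKM in wild type, both named after their values were seen. The 121 other lower genes measured with NuGEN had medians of -1.28 and -0.07. Their knockout levels were alike in the kits (median log2 of NuGEN over Clontech FPKM 0.01), but their wild-type levels were not (-1.45). For the 60 shared genes these medians were 0.17 in knockout and -0.01 in wild type. The 66 higher genes measured with NuGEN but not called higher there had medians of 0.09 in knockout and 0.90 in wild type. For the 38 shared higher genes they were 0.16 and 0.22. The tables were normalised separately and the genes were chosen on the Clontech values, so this is a description.

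Another 9 genes were called in opposite directions, 8 of them lower with Clontech and higher with NuGEN: Fabp7, Id3, Anxa1, Cd63, Dbi, Cenpq, Fam183b and 1810037I17Rik. Fabp7 had log2 ratios of -1.49 and 1.07. Id3, an inhibitor of bHLH factors, had 30.6 FPKM in the knockout and 98.0 FPKM in wild type with Clontech, and 28.2 FPKM in knockout and 10.7 FPKM in wild type with NuGEN. Anxa1 had 5.34 FPKM in knockout and 52.2 FPKM in wild type with Clontech and 9.86 FPKM in knockout and 5.52 FPKM in wild type with NuGEN. In both cases the Clontech wild type stood apart from the other 3 groups. Tmem170b was higher with Clontech, at 4.64 FPKM in knockout and 2.57 FPKM in wild type, and lower with NuGEN, at 9.22 FPKM in knockout and 17.3 FPKM in wild type.

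**Figure D5:**
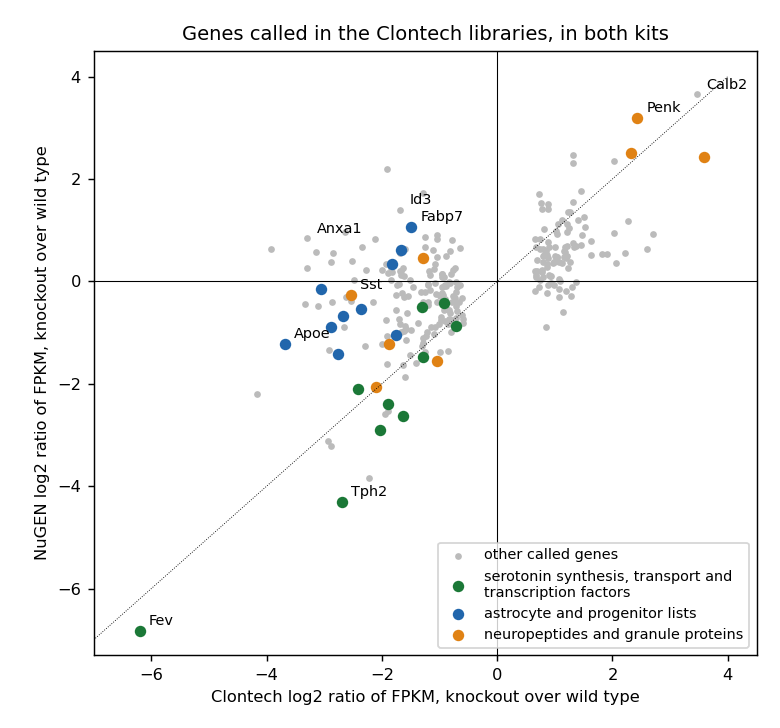
Log2 ratio of FPKM, knockout over wild type, in NuGEN libraries (vertical) and Clontech libraries (horizontal) for the 284 genes called with Clontech and measured with both, the dotted line marking equal ratios. Serotonin genes (green) lie in the lower left, Penk and Calb2 in the upper right, and astrocyte and progenitor genes (blue) left of 0 on the horizontal axis with NuGEN ratios from -1.42 (Aldh1l1) to 1.07 (Fabp7).

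The knockout values were set against the spread of the wild-type libraries. Of 105 higher genes 103 lay above all 3 libraries, and of 202 lower genes 187 lay below all 3. Of all genes 19.2% lay above and 14.9% below. Called genes were chosen by their distance from a wild-type value that these libraries match, so their position is largely set by that choice. The other 17 called genes lay within the libraries' range, Nr2f2 among them. The coefficient of variation of the 3 libraries had a median of 31.0% over all genes, 31.0% over lower genes and 35.6% over higher genes. Called genes spread over the range of levels: 1.86% of genes with a mean of both groups under 2 FPKM were called, 3.38% of those from 10 to 50 FPKM and 1.84% of those from 200 FPKM. At the lower edge, 451 genes reached 1 FPKM in the knockout alone and 482 in wild type alone. Nol3, at 1.00 FPKM in the knockout and 0.818 in wild type, lay just inside the minimum of 1 FPKM, and Dstyk, at 0.999 FPKM in knockout and 0.828 FPKM in wild type, just outside. Slc38a5, Insl6 and Mdh1b were called with 0 FPKM listed in the knockout and 1.26, 1.02 and 1.11 FPKM in wild type.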

How the data were processed

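RNA of EYFP-positive 5-HT neurons sorted from E15.5 Pet-1-/- and wild-type mice was amplified with the Clontech kit, 3 libraries each. The authors deposited FPKM per group and, for the wild type, per library. Per the file headers the tables are of Cuffdiff form, and the authors' deposited tables hold for each gene a q-value and p-value, and a log2 fold change that the authors made from the group FPKM. Per the submitters' processing notes TopHat2, Cufflinks and BWA were used without a stated version, and MACS 1.4.2. No source used here ties a genome build to the expression tables. The peak score was deposited by the authors.

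The log2 ratio was computed from the 2 group columns with no pseudocount. Genes with status OK and at least 1 FPKM in a group were kept, 10939. A call needed a deposited q below 0.05 and 1.5-fold. No test was run on libraries, because knockout values are pooled. The call rule, the adjustment and the peak distances were tested on simulated data. A planned test of the kits' difference was not run, since a normal p of the deposited test statistic came within 0.02 of the deposited p for 7.39% of genes. The 30 gene lists (656 genes) and the genes described were chosen with earlier results of these data known, and some items are not reported here. Named genes were Fev, the measured members of 3 serotonin lists, the 12 highest and 12 lowest called ratios at 5 FPKM or more, up to 4 called members of each other list and the 6 most abundant called genes per direction. Of per-sample columns in the wild-type matrix, 9 were not used, 3 of them matching no sample. Python 3.11.15, pandas 2.3.3, numpy 2.4.6 and matplotlib 3.10.9 were used.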

Additional observations from a re-analysis of the deposited data

How the results depend on the processing

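The 307 calls stayed within 1.5-fold of that count with a floor of 5 FPKM (236), at 2-fold (208) and without a minimum fold (317). They also did with p adjusted over these genes alone (318), centred on the median ratio (306) and scaled to the upper quartile (305). The upper quartile shift was 0.10 on the log2 scale. The setting without a floor gave 304, of which 303 were among the 307. Removing a floor cannot itself lose calls, so that setting differs from the main rule in more than the floor. Of the 307, 3 are listed at 0 in the knockout and 1 in wild type, without a finite ratio. A q below 0.01 left 173. Against the wild-type mean of the 3 stage libraries there were 294 calls, and 272 to 305 when 1 library was left out, an alternative chosen after seeing the data. These counts kept the deposited q and changed the ratio alone. The share of decreases ran from 63.9% to 71.7%. Calls shared with NuGEN numbered 98 with no minimum fold there and 76 with a floor of 5 FPKM. Called genes with a peak numbered 55 within 5 kb, 44 within 1 kb, 82 across the gene body or 10 kb, and 25 with peaks of at least the median score.

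Of 66 named called genes with a ratio 65 have a NuGEN ratio, 35 called alike, 21 in the same direction without a call and 9 with the opposite sign: 1500015O10Rik (0.64), Vtn (0.27), Anxa1 (0.84), 1700027A23Rik (1.29), Cnr1 (-0.11), Fos (0.21), Ccnd2 (0.62), Sox9 (0.62) and Fabp7 (1.07). The cause was not tested. A pseudocount of 1 FPKM ended the call of Bsn. Without library c, Nr2f2 (-0.42), Slc17a8 (-0.42), Elavl3 (0.58), Itm2b (-0.35) and Ccl27a (0.30) fell short of 1.5-fold, as did Nr2f2 (-0.30) and Itm2b (-0.57) without library a. The difference between kits, also with both centred, was not run. No paired analysis was possible because the knockout is deposited as 1 pooled value. Depth is unknown, so the counting error of low genes could not be estimated.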

Other observations

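Several further genes of related function moved together, all picked after their values were seen and without a test of any group. Runx1t1 and Cbfa2t3, corepressors of the ETO family, were higher with both kits. Runx1t1 had 30.0 FPKM in the knockout and 13.7 FPKM in wild type, and Cbfa2t3 8.06 FPKM in knockout and 3.47 FPKM in wild type. Gpm6a and Gpm6b, related membrane glycoproteins of neurons and glia, were lower with both kits, at 150 FPKM in the knockout and 252 in wild type for Gpm6a and 61.9 FPKM in knockout and 112 FPKM in wild type for Gpm6b. Pcsk5, a proprotein convertase like Pcsk1, had 1.05 FPKM in the knockout and 4.90 in wild type, with log2 ratios of -2.22 with Clontech and -3.83 with NuGEN.

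Phgdh and Psat1, enzymes of serine synthesis, were lower with Clontech, at 9.82 FPKM in the knockout and 28.6 in wild type for Phgdh and 19.7 FPKM in knockout and 40.8 FPKM in wild type for Psat1. NuGEN called neither, with log2 ratios of -0.28 and -0.40. Nfia and Nfix, nuclear factor I genes that glia and maturing neurons express, were lower with Clontech (log2 ratios -1.19 and -0.76), with NuGEN ratios of 0.21 and 0.22.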
